A study of Mus musculus with 18 samples.

Results

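The 10 genes described here belong to the matrix metalloproteinase (MMP) family and to the tissue inhibitors of metalloproteinases (TIMPs). They were taken by symbol: the 7 proteases *Mmp2*, *Mmp3*, *Mmp9*, *Mmp10*, *Mmp11*, *Mmp13* and *Mmp14*, and the 3 inhibitors *Timp2*, *Timp3* and *Timp4*. All 10 were found among the 21959 genes listed for mouse embryonic fibroblasts (MEFs) and among the 51826 genes listed for liver.

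mRNA-seq compared RepB-/- mice, which lack repeat B of *Xist*, the noncoding RNA that silences an X chromosome in female cells, with wild-type (WT) mice. The deletion was made with Cas9 and a pair of guide RNAs injected into zygotes. For each genotype, 3 libraries came from primary MEFs, for which the labels also name tail as the tissue, and 3 came from liver; the letter B in a label was read as RepB-/- and W as WT. The labels give no strain, sex, age or treatment, and they do not say whether the 3 libraries of a group came from separate animals or cultures, so the p-values measure the spread between these libraries, which may be technical.

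MMPs are zinc-dependent proteases that are secreted or anchored in the plasma membrane, are made as inactive proenzymes, and cut collagens, fibronectin, laminins, proteoglycans and other matrix proteins once activated. TIMPs bind the active site and block it, and TIMP2 also forms a complex with the membrane protease MMP14 that activates pro-MMP2. Fibroblasts are a main source of both groups in connective tissue, whereas in liver they come mostly from stellate cells, other mesenchymal cells and leukocytes.

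Depth was 11540344 to 20587556 counts per MEF library and 37682201 to 51542709 per liver library. Levels are given as CPM, the counts of a gene scaled to a common library size after TMM normalization. The 11 fibroblast markers of the MEF libraries summed to between 29535 and 35649 CPM in RepB-/- and between 20500 and 25374 CPM in WT, and hepatocyte markers reached at most 1.92 CPM. The 5 contractile smooth muscle markers summed to 2012 to 2457 CPM in RepB-/- and 3091 to 4737 CPM in WT MEFs. The 3 RepB-/- MEF libraries had counts for 15453 to 15545 genes, fewer than the 17191 to 17664 genes of the shallower WT libraries. Low genes in MEFs leaned to lower values in RepB-/-: of 870 genes tested below a mean of 1 CPM, 36.2% were called lower and 1.95% higher, against 9.28% lower and 44.3% higher among the 97 genes at 1000 CPM or more. In liver, the replicate 1 libraries of both genotypes stood apart, with 507 and 369 CPM of the fetal gene *Afp* against 2.79 to 6.04 CPM in the other 4, and the library labelled RepB-/- replicate 2 held 86.2 CPM of 4 Y-linked genes, against at most 0.029 CPM in the other livers. That library thus held male material and may not come from a female homozygote. It was kept as RepB-/- in the liver fit as reported.

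In MEFs, 6 of the 10 genes changed in RepB-/-. *Mmp9*, *Mmp11*, *Mmp2* and *Mmp14* were upregulated by 1.24-fold to 1.93-fold, *Mmp10* and *Mmp13* were downregulated by 2.08-fold and 1.60-fold, and none of the 3 TIMPs changed. Genotypes were compared with edgeR's quasi-likelihood test at a Benjamini-Hochberg adjusted p of 0.05 over the 13306 genes tested, of which 39.1% were called, 19.4% higher and 19.7% lower. The same 6 genes were those whose RepB-/- and WT libraries did not overlap, a pattern found in 52.2% of all tested genes, 26.4% with RepB-/- above and 25.8% with it below. DESeq2, run without a filter on low counts before the test, called 5128 of its 19330 genes (26.5%), against 5202 genes in edgeR. The shares of the 2 tools thus have different bases. The edgeR fit with replicate number as a block called 37.6%, and the same 6 members were called by DESeq2 and with the block. The count of 6 in 10 stands against this background, and nothing particular to these genes is read from it.

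**Figure D1:**
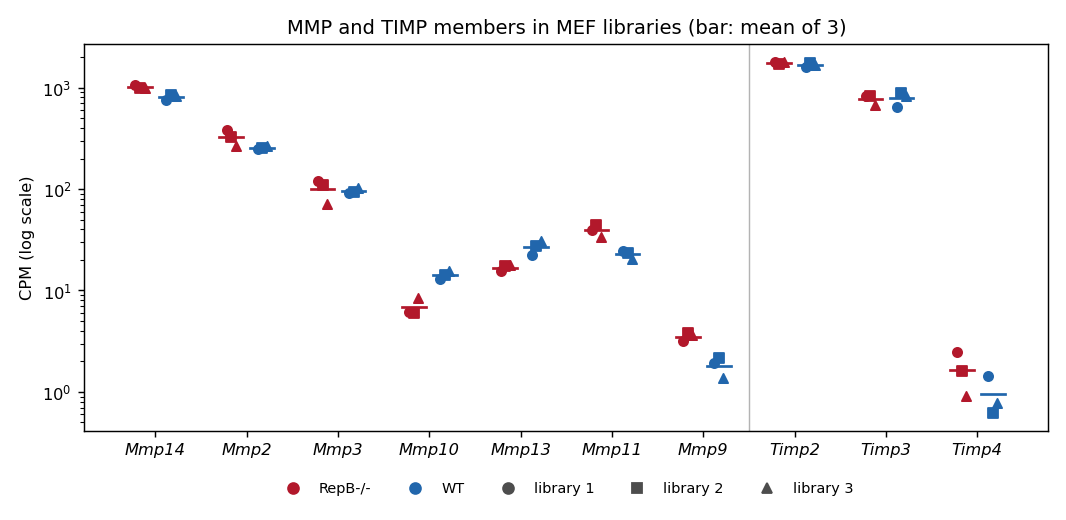
Level of each of the 10 genes in the 6 MEF libraries, in CPM on a log scale. Red symbols are RepB-/- libraries and blue symbols WT libraries, the marker shape gives the library number and the bar is the mean of 3. *Mmp10* and *Mmp13* lie lower in RepB-/-, *Mmp9*, *Mmp11*, *Mmp2* and *Mmp14* lie higher, and the TIMPs overlap between genotypes.

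*Mmp10*, stromelysin-2, which cuts proteoglycans and fibronectin and activates other MMPs, had 6.12, 6.04 and 8.36 CPM in RepB-/- replicates 1 to 3 and 12.9, 14.1 and 15.7 CPM in WT. Every RepB-/- library was below every WT library, and RepB-/- replicate 3 was the nearest to WT. In the fit its log2 fold change was -1.06 ± 0.16 (standard error, n = 3 against 3, edgeR adjusted p = 0.000189).

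*Mmp13*, collagenase-3, the main interstitial collagenase of the mouse, had 15.4, 17.5 and 17.6 CPM in RepB-/- and 22.2, 27.6 and 30.5 CPM in WT. The groups did not overlap, and WT replicate 1, the shallowest MEF library, was the lowest of WT. Its log2 fold change was -0.68 ± 0.12 (edgeR adjusted p = 0.000776).

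*Mmp3*, stromelysin-1, lies between those genes on chromosome 9 and was more abundant than either, with 119, 111 and 71.4 CPM in RepB-/- and 91.7, 93.4 and 103 CPM in WT. The RepB-/- libraries lay on both sides of WT, 2 of them above and replicate 3 below all 3 WT libraries. Its fold change on the log2 scale was 0.06 ± 0.14 (edgeR adjusted p = 0.752), and without RepB-/- replicate 3 it was 0.26 with an adjusted p of 0.033.

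The sequences before the starts of these 3 genes are shown because *Mmp10*, *Mmp13* and *Mmp3* share the same pair of short motifs there while their counts moved differently, and *Mmp14* is shown as an upregulated gene that lacks both. Each run is the 250 bases before the RefSeq start (GRCm38.p6), 5′ to 3′ on the gene's strand. Capitals mark the AP-1 motif TGANTCA, searched on both strands, and the TATA motif TATAAA, searched on the gene's strand only. The regions are chr9:7502092-7502341 for *Mmp10*, chr9:7272264-7272513 for *Mmp13*, chr9:7445572-7445821 for *Mmp3* and chr14:54431348-54431597 for *Mmp14*, all on the plus strand.
Mmp10: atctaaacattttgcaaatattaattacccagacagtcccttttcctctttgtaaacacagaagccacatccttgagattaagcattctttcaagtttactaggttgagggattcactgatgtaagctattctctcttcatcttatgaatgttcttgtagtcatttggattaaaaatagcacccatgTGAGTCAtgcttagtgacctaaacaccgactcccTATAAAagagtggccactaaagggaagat
Mmp13: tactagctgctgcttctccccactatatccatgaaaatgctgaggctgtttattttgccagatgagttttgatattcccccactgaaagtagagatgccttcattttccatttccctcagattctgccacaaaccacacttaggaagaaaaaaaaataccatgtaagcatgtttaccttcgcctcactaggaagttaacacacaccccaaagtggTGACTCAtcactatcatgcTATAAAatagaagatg
Mmp3: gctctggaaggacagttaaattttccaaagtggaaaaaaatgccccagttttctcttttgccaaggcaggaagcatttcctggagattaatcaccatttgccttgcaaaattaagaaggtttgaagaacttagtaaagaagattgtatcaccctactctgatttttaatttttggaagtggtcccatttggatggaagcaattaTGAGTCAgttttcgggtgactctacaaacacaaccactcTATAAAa
Mmp14: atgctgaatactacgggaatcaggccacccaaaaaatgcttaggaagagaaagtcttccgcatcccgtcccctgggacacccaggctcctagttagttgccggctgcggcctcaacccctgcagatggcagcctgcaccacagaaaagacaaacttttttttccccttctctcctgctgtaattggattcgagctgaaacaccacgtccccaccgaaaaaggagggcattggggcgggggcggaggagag

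The table of promoters held 8 of the 10 genes, without *Mmp2* and *Mmp9*. The AP-1 letters began 63 bases before the start of *Mmp10*, 46 before that of *Mmp3* and 35 before that of *Mmp13*, and those of the TATA motif 29, 7 and 16 bases before. Neither motif was in the windows of *Mmp11*, *Mmp14*, *Timp2*, *Timp3* or *Timp4*. Among all 32851 windows of this length, 6.75% held the AP-1 motif and 7.59% the TATA motif. The RUNX motif TGTGGT, searched on both strands, was in the windows of *Mmp13* and *Mmp14* and in 14% of all windows. The ETS motif AGGAAG, also on both strands, was in those of *Mmp13*, *Mmp14*, *Mmp3*, *Timp3* and *Timp4* and in 29.5% of all windows. GC content was 37.2% for *Mmp10*, 37.6% for *Mmp3* and 40.4% for *Mmp13*, below the median of 52.4% for all windows, and 53.6% to 68.0% for the other 5. A match is a string of letters and not a shown binding site.

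*Mmp9*, gelatinase B, was low in MEFs, with 3.16, 3.77 and 3.60 CPM in RepB-/- and 1.92, 2.16 and 1.37 CPM in WT, from 23 to 73 counts per library. All RepB-/- libraries were above all WT libraries. The log2 fold change was 0.95 ± 0.27 (edgeR adjusted p = 0.0127), and the call was lost without RepB-/- replicate 2 (adjusted p = 0.054) or without WT replicate 3 (adjusted p = 0.055). The summed markers of macrophages, cells that also make *Mmp9*, stood higher in RepB-/- MEFs. The list of 9 summed to 119 to 152 CPM against 50.8 to 65.9 CPM in WT, with 4 of 5 tested genes higher and 1 lower. *Lyz2* made up most of the sum at 90.8 to 120 CPM against 20.3 to 42.7 CPM, and *Adgre1* had 2.84 to 3.62 CPM against 0.48 to 1.30 CPM. The 1 that fell was *Cd68*, at 7.39 to 8.36 CPM in RepB-/- and 8.60 to 16.5 CPM in WT (log2 fold change -0.62 ± 0.20, edgeR adjusted p = 0.0267). The Kupffer cell markers *Clec4f* and *Vsig4* were at 3 counts or fewer in every library. The part of macrophages in the *Mmp9* difference was not tested. In bulk RNA more cells of a type and more RNA per cell cannot be told apart.

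*Mmp2*, gelatinase A, cuts denatured collagen and type IV collagen. It had 383, 329 and 266 CPM in RepB-/- and 246, 255 and 265 CPM in WT. RepB-/- replicate 3 exceeded WT replicate 3 by a margin of under 1 CPM, so the groups only just failed to overlap. RepB-/- exceeded WT by a log2 fold change of 0.35 ± 0.11 (edgeR adjusted p = 0.0173), and the call was lost without RepB-/- replicate 1 (0.23, adjusted p = 0.102) or replicate 2 (adjusted p = 0.055).

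*Mmp14*, the membrane-type protease that activates pro-MMP2, was the most abundant MMP in MEFs and had 1056, 984 and 992 CPM in RepB-/- against 761, 854 and 825 CPM in WT. The groups did not overlap. Between genotypes the log2 fold change was 0.31 ± 0.076 (edgeR adjusted p = 0.00529). *Mmp11*, stromelysin-3, which is activated inside the cell by furin, had 39.7, 44.2 and 33.9 CPM in RepB-/- against 24.8, 23.3 and 20.5 CPM in WT, again without overlap. Its log2 fold change was 0.78 ± 0.11 (edgeR adjusted p = 0.000149), which passed the threshold without any single library.

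*Timp2* was the most abundant of the 10 genes, with 1784, 1716 and 1808 CPM in RepB-/- and 1588, 1768 and 1675 CPM in WT (log2 fold change 0.08 ± 0.077, edgeR adjusted p = 0.449). *Timp3*, whose protein binds to the matrix, had 823, 827 and 675 CPM against 641, 893 and 823 CPM (-0.02 ± 0.11, adjusted p = 0.905). *Timp4* was near the limit of detection with 10 to 48 counts per library, 2.45, 1.60 and 0.91 CPM in RepB-/- against 1.44, 0.62 and 0.77 CPM in WT. The genotypes overlapped for all 3. The *Timp4* log2 fold change of 0.84 ± 0.45 had an adjusted p of 0.153 in edgeR, and of 0.046 without WT replicate 1. *Timp3* and *Timp4* lie inside the synapsin genes *Syn3* and *Syn2* on the opposite strand, and whether the counting used strand is not stated. *Syn3* averaged 0.39 CPM in RepB-/- and 0.91 CPM in WT MEFs, far under *Timp3*, but *Syn2* at 1.02 and 1.25 CPM was as low as *Timp4*, so the *Timp4* counts are uncertain.

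RepB-/- replicate 3 was the lowest of its group for 5 of the 10 genes, *Mmp2*, *Mmp3*, *Mmp11*, *Timp3* and *Timp4*, and the highest for 3, *Mmp10*, *Mmp13* and *Timp2*. The fibroblast markers of this library summed to 29535 CPM against 31930 and 35649 CPM in the other 2.

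Per kilobase of gene length, *Timp2* was the highest of the 10 genes in WT MEFs, at 430 ± 23.2 CPM per kb (SD, n = 3), followed by *Mmp14* at 137 ± 7.97, *Timp3* at 96.4 ± 16.0, *Mmp2* at 75.8 ± 2.87 and *Mmp3* at 53.3 ± 3.45. *Mmp13*, *Mmp10* and *Mmp11* came next at 10.02, 8.26 and 8.23 CPM per kb, and their libraries overlapped. *Mmp9* at 0.51 and *Timp4* at 0.16 CPM per kb were the lowest. In RepB-/- MEFs these 3 genes no longer overlapped, with *Mmp11* at 14.1 ± 1.87, *Mmp13* at 6.30 ± 0.47 and *Mmp10* at 3.97 ± 0.77 CPM per kb, and *Mmp2* at 96.8 ± 17.5 overlapped with *Timp3* at 95.1 ± 10.6. The 7 MMPs together gave 0.682, 0.648 and 0.566 times the summed level of the 3 TIMPs in RepB-/- replicates 1 to 3 and 0.569, 0.530 and 0.570 times in WT, so the ratios of the genotypes overlapped.

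The rest of the family was read from the same fit. Of 17 other *Mmp* and *Timp* genes, 12 were tested, 4 rose and 3 fell, beside 39.1% of all tested genes called. *Mmp12*, macrophage elastase, rose most, from 3.37, 3.65 and 6.65 CPM in WT to 18.0, 16.2 and 12.7 CPM in RepB-/- (log2 fold change 1.76 ± 0.22, edgeR adjusted p = 6.01e-05). The macrophage markers summed higher in the same libraries, mostly through *Lyz2*, while *Cd68* fell, and the part of macrophages was not tested. *Mmp8*, neutrophil collagenase, had 2.38 to 5.84 CPM in RepB-/- and 1.12 to 2.29 CPM in WT (1.37 ± 0.35, adjusted p = 0.00743), beside low neutrophil markers. The list of 10 summed to 1.58 to 3.20 CPM in RepB-/- and 1.11 to 3.61 CPM in WT, 5 of the 10 (*S100a9*, *Elane*, *Ngp*, *Prtn3* and *Cebpe*) were at 3 counts or fewer in every MEF library, and *S100a8*, the 1 that was tested, had 1.02 to 2.58 CPM in RepB-/- and 0.56 to 1.43 CPM in WT (0.81 ± 0.43, adjusted p = 0.155). Their part in the *Mmp8* difference was not tested. *Mmp19* rose by 0.42 ± 0.089. *Timp1*, the X-linked TIMP, lies inside *Syn1* and was per kilobase above all 10 genes; it rose by 0.25 ± 0.089 (adjusted p = 0.0383), a call lost in 4 of the 6 fits that left out a library and with upper quartile scaling.

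*Mmp25*, a GPI-anchored MMP, fell from 6.90, 2.54 and 3.27 CPM in WT to 0.36, 0.21 and 0.56 CPM in RepB-/- (log2 fold change -3.45 ± 0.47, edgeR adjusted p = 0.000108). It held 7, 4 and 11 counts in RepB-/- and 86, 41 and 55 in WT. It thus passed the filter on low counts only through the WT libraries, and its p-value carries that limit. *Mmp15*, a membrane-type MMP, fell by 1.03 ± 0.22 and *Mmp28* by 0.87 ± 0.23 on the log2 scale. All 3 averaged between 1 and 10 CPM, a range in which 24.3% of 3482 tested genes were called lower and 11.1% higher, and the part of this trend with level was not tested. *Mmp16*, *Mmp17*, *Mmp23*, *Mmp24* and *Mmp27* passed no threshold. *Mmp1a*, *Mmp1b*, *Mmp7*, *Mmp20* and *Mmp21* had too few counts to be tested, with *Mmp21* at 0 counts in each RepB-/- library and at 4, 7 and 5 counts in WT. Over the whole family, 13 of 22 tested genes were called, 8 higher and 5 lower. Of all tested genes 39.1% were called, 19.4% higher and 19.7% lower. The median log2 fold changes were 0.31 for the 7 MMPs, 0.08 for the 3 TIMPs and 0.09 for the 12 others, against 0.000299 for all tested genes. *Mmp2*, *Mmp14*, *Timp1* and *Timp3* averaged between 100 and 1000 CPM. In that range 29.3% of 1975 tested genes were called higher and 14.9% lower, with a median of 0.067. The part of level in these values was not tested.

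**Figure D2:**
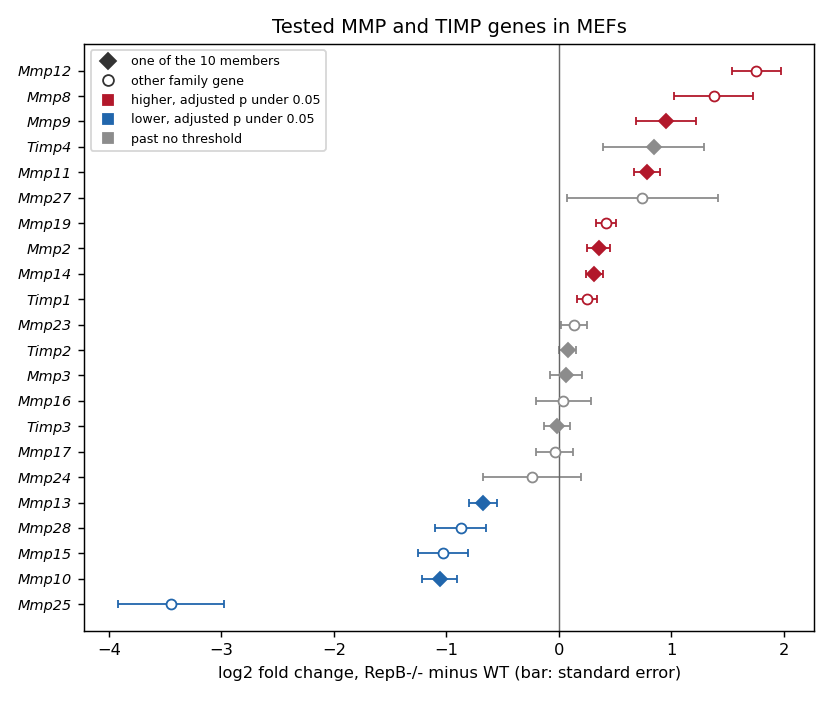
Log2 fold change (RepB-/- minus WT) of the 22 tested MMP and TIMP genes in MEFs with its standard error. Filled diamonds are the 10 genes of the report and open circles the other family genes; red is higher, blue is lower and grey passed no threshold. The values run from -3.45 for *Mmp25*, which passed the filter on low counts only through WT, to 1.76 for *Mmp12*.

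*Mmp13*, *Mmp3* and *Mmp10* belong to a cluster of 10 MMP genes that spans 427 kb of chromosome 9 in the MEF table (GRCm39), with *Mmp13* at chr9:7272514-7283331, *Mmp3* at chr9:7445822-7455975 and *Mmp10* at chr9:7502353-7510241. No other listed gene lay within it. Of the 6 cluster genes tested, *Mmp13* and *Mmp10* fell, *Mmp12* and *Mmp8* rose, and *Mmp3* and *Mmp27* passed no threshold. The share called over all tested genes was 39.1%. Neighbours went opposite ways, since *Mmp8* starts 56.1 kb beyond *Mmp10* and *Mmp12* starts 71.9 kb beyond *Mmp13*. *Mmp12* overlaps the end of *Mmp1b* on the opposite strand, but *Mmp1b* held 7 counts over all MEF libraries. The other genes lie apart, with *Mmp2* on chromosome 8, *Mmp9* on 2, *Mmp11* and *Timp3* on 10, *Mmp14* on 14, *Timp2* on 11 and *Timp4* on 6, so none of the 10 is X-linked.

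**Figure D3:**
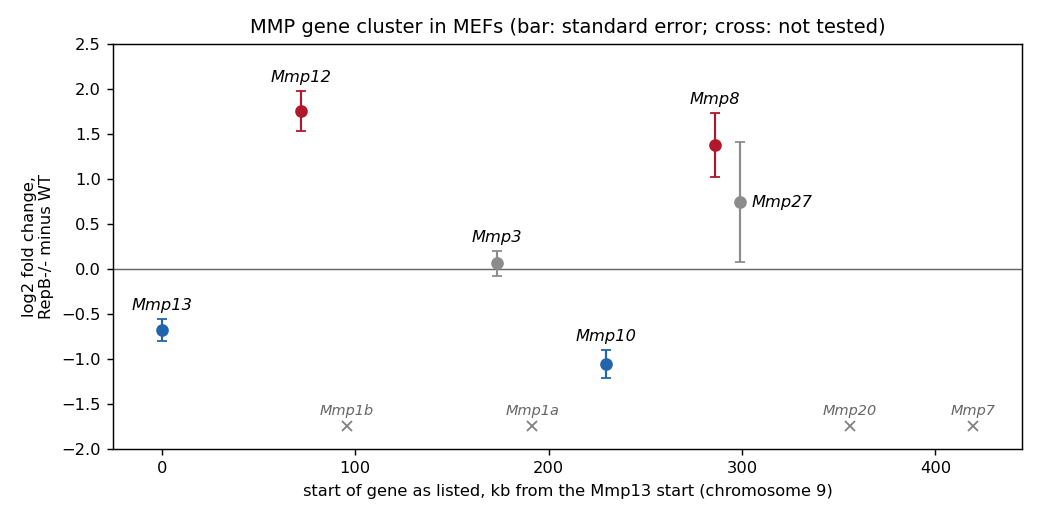
Log2 fold change (RepB-/- minus WT, with standard error) of the clustered MMP genes of chromosome 9 in MEFs against the distance of their listed starts from the *Mmp13* start, in kb. Red points rose, blue points fell, grey points passed no threshold and crosses mark genes that were not tested. *Mmp12* at 1.76 and *Mmp8* at 1.37 stand above 0, and *Mmp13* at -0.68 and *Mmp10* at -1.06 below it.

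The profile most like that of *Mmp10* over the 6 MEF libraries, among 8953 tested genes with at least 10 CPM, was that of *Rtf2* (Pearson r = 0.997 of log2 CPM), followed by *Cep44* (0.996), *Stk4*, *Iqgap1* and *Btf3l4* (each 0.993). These 6 points share libraries and depth, and the log2 fold changes of the 5 genes, from -0.45 to -0.18, were smaller than that of *Mmp10*.

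Of 24 genes for activators, inhibitors and surface partners of MMPs, 21 were tested in MEFs, 11 rose and 5 fell. Among all tested genes, 19.4% were called higher and 19.7% lower. The plasminogen activators were split: *Plau*, urokinase, fell from 160 to 343 CPM in WT to 67.1 to 83.5 CPM in RepB-/- (log2 fold change -1.63 ± 0.20), and its receptor *Plaur* fell by 0.57 ± 0.070, while *Plat*, the tissue-type activator, rose by 1.12 ± 0.089. The inhibitor gene *Serpine2* rose by 1.30, and *Reck*, a membrane-anchored MMP inhibitor, rose by 0.61. *Thbs2*, which binds MMP2 for uptake, rose by 1.05 ± 0.091. *Itgb3*, an integrin subunit of a receptor that binds MMP2, fell by 1.12 ± 0.11, and *Furin*, which activates MMP14 and MMP11, fell by 0.34 (edgeR adjusted p = 0.00242).

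Of 26 ADAM and ADAMTS genes, the related proteases, 24 were tested, 11 rose and 3 fell, beside 39.1% of all tested genes called. *Adamts5* and *Adamts1*, which cut aggrecan and versican, rose by 1.83 ± 0.15 and 1.19 ± 0.082, from 189 to 315 CPM to 936 to 995 CPM for *Adamts5*. *Adamts15* rose by 1.95 ± 0.52 at under 2 CPM. *Adamts4* fell by 0.55, *Adamts14* by 0.41 and *Adamts9* by 0.39, the last with an adjusted p of 0.0461 that was lost in several alternative fits.

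Among 28 transcription factors and cytokines known to act on MMP genes, 25 were tested, 8 rose and 11 fell. Of all tested genes, 39.1% were called. The subunits of AP-1 moved apart: *Fos* rose by 1.03 ± 0.14, *Fosb* by 0.68 and *Fosl2* by 0.52, *Junb* fell by 0.53, *Jun* by 0.27 and *Fosl1* by 0.25, and *Jund* was at -0.03 (adjusted p = 0.898). Of the ETS factors, *Etv4* fell by 1.07 ± 0.12 and *Ets2* by 0.81 ± 0.14, while *Ets1* rose by 0.19. The cytokine *Il6* rose by 1.81 ± 0.14 and the interleukin-1 receptor *Il1r1* by 0.78, and the 3 TGF-beta genes *Tgfb1*, *Tgfb2* and *Tgfb3* fell by 0.70, 0.61 and 0.75. *Runx2*, a regulator of *Mmp13* in bone, was at 0.16 with an adjusted p of 0.128.

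Of 25 genes for matrix proteins that MMPs cut, 24 were tested, 7 rose and 2 fell. The share called over all tested genes was 39.1%, and nothing particular to matrix genes is read from the count. Fibrillar collagen *Col3a1* rose by 0.81 ± 0.15, *Col1a1* by 0.54 and the cartilage collagen *Col2a1* by 1.82 ± 0.36, and the proteoglycan *Dcn* by 1.31 ± 0.22. A list of 9 chondrocyte and osteoblast markers, *Col2a1* among them, summed to 202 to 349 CPM in RepB-/- and 159 to 175 CPM in WT, with *Col2a1* itself at 42.7 to 184 CPM and 24.9 to 37.4 CPM. Of its 8 tested genes 3 rose, *Col2a1*, *Alpl* and *Sox9*, and 1 fell, *Ibsp*, by 3.25, and the part of such cells was not tested. The 2 that fell were the basement membrane chains *Col4a1* and *Col4a2*, by 0.54 and 0.49. The medians of the 4 lists were 0.35 for activators and inhibitors, 0.20 for ADAM and ADAMTS genes, -0.12 for regulators and 0.20 for matrix proteins.

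In liver, none of the 10 genes was called. edgeR's test called 6 of 16080 genes (0.0373%), and the spread was wide, with a biological coefficient of variation of 51.2% against 9.06% in MEFs. Of the 10 genes, 7 were tested, and their log2 fold changes had standard errors of 0.23 to 1.65, against 0.076 to 0.45 for the 10 genes in MEFs. With replicate number as a block the standard errors in liver were 0.21 to 0.74. Of the 7, *Timp3* alone had an unadjusted p below 0.05, and no member was called by DESeq2 (which called 0.299% of its genes and gave no value for *Mmp9*), with replicate number as a block (0.0498%), with a term for the replicate 1 libraries (0.056%), or with that term and without RepB-/- replicate 2 (0.0179%).

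*Mmp10* was at 0 counts in all 6 liver libraries, which allows up to 0.058 to 0.080 CPM in a library (3 counts). *Mmp3* had 4 counts in WT replicate 1 and 0 elsewhere, and *Timp4* had 4 and 3 counts in RepB-/- replicates 1 and 3 and 0 elsewhere. *Mmp13* was at 0 counts in both replicate 1 libraries and between 15 and 42 counts in the other 4. The first 3 genes were at or close to the limit and were not tested, and *Mmp13* reached at most 1.23 CPM.

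*Mmp14* was the highest of the 10 genes in liver by CPM, with 94.4, 32.1 and 38.1 CPM in RepB-/- and 96.7, 63.1 and 51.8 CPM in WT. The replicate 1 libraries were highest in both genotypes. Within each number RepB-/- was the lower, at 0.976, 0.509 and 0.734 times WT, although the labels do not pair libraries by number. The first of these is close to no difference, and the share of all tested genes with this pattern was not counted. The log2 fold change was -0.36 ± 0.46 (edgeR adjusted p = 1.00). *Timp2* had 55.8, 26.3 and 19.6 CPM against 42.2, 26.1 and 25.7 CPM (0.11 ± 0.43), and *Mmp11* had 6.91, 1.29 and 0.90 CPM against 3.93, 1.06 and 0.93 CPM (0.62 ± 0.95). Both were also highest in the replicate 1 libraries, with overlapping genotypes. The 11 fibroblast markers summed to 3731 and 3865 CPM in the replicate 1 libraries of RepB-/- and WT and to 1633 to 2195 CPM in the other 4. *Fn1* alone made up most of each sum, with 2283 and 2890 CPM in the replicate 1 libraries and 1346 to 1860 CPM in the other 4. *Dcn* did not follow it, at 209, 156 and 215 CPM in RepB-/- and 175, 181 and 148 CPM in WT. The part of fibroblasts in these levels was not tested. Leaving out 1 library moved the log2 fold change of *Mmp11* between -0.84 (without RepB-/- replicate 1) and 1.61 (without WT replicate 1), that of *Timp2* between -0.44 and 0.40 and that of *Mmp14* between -1.01 and -0.07, so the values of *Mmp11* and *Timp2* changed sign.

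*Mmp2* had 55.2, 12.8 and 4.05 CPM in RepB-/- and 27.5, 3.46 and 2.03 CPM in WT. The genotypes overlapped over all libraries, but within each number RepB-/- was higher, by 2.01-fold, 3.69-fold and 1.999-fold. The same held for *Timp3*, so 2 of the 7 tested genes were higher within all 3 numbers, a pattern seen in 15.4% of all tested genes. The log2 fold change of *Mmp2* was 1.13 ± 1.23 (edgeR adjusted p = 1.00), and with replicate number as a block 1.29 with an unadjusted p of 0.0021 and an adjusted p of 0.41. Without the block it was -0.38 when RepB-/- replicate 1 was left out and 3.13 when WT replicate 1 was left out.

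*Timp3* was the 1 member of 7 whose liver genotypes did not overlap, with 16.9, 14.9 and 21.8 CPM in RepB-/- and 9.30, 13.0 and 11.3 CPM in WT; 8.05% of all tested genes did not overlap. Its log2 fold change was 0.67 ± 0.23 with an unadjusted p of 0.0256 and an adjusted p of 1.00. Without the library that held Y-linked counts the log2 fold change was 0.78, and *Syn3*, whose gene surrounds *Timp3*, had 0.29 to 0.79 CPM.

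**Figure D4:**
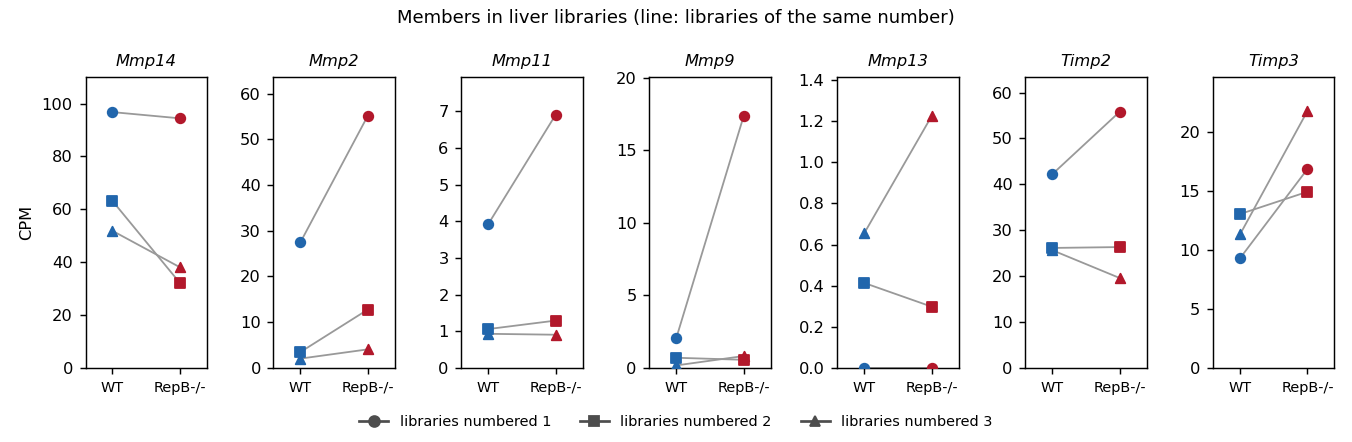
Level in CPM of the 7 tested genes in the 6 liver libraries, each panel with its own scale from 0. Lines join the WT and RepB-/- libraries of the same number and the marker shape gives that number. *Mmp14*, *Mmp2*, *Mmp11*, *Mmp9* and *Timp2* are highest in the libraries numbered 1, *Mmp13* is at 0 there, and *Mmp2* and *Timp3* rise along all 3 lines.

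*Mmp9* had 17.4 CPM in RepB-/- replicate 1, 2.05 CPM in WT replicate 1 and between 0.17 and 0.82 CPM in the other 4 liver libraries. The sum of the 10 neutrophil markers followed the same order, at 685 CPM, 62.9 CPM and 7.50 to 16.1 CPM, and *Ngp* among them had 205, 13.9 and 0.77 to 2.27 CPM. RepB-/- replicate 1 was the highest library for every marker, but WT replicate 1 was not always next. *Cebpe* had 0.42, 2.07 and 2.58 CPM in WT replicates 1 to 3. *Prtn3* and *Ly6g* were higher in RepB-/- replicates 2 and 3, respectively, than in WT replicate 1. The neutrophil proteases *Mmp8* and *Mmp25* were also highest in RepB-/- replicate 1, at 7.07 and 1.70 CPM against at most 0.34 and 0.12 CPM elsewhere. The log2 fold change of *Mmp9* was 2.68 ± 1.51 (edgeR adjusted p = 1.00), and it was -0.50 without RepB-/- replicate 1 and 3.86 without WT replicate 1. The part of neutrophils in the *Mmp9* difference was not tested.

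**Figure D5:**
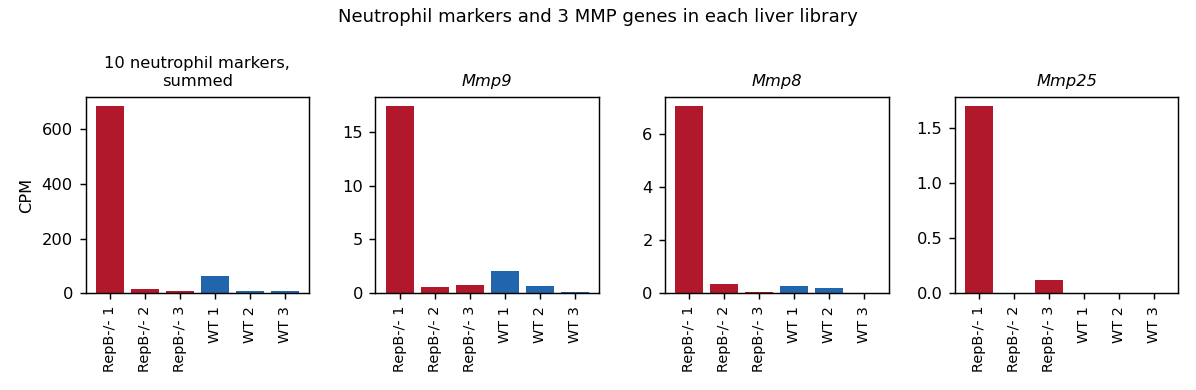
Summed level of 10 neutrophil markers and levels of *Mmp9*, *Mmp8* and *Mmp25* in each liver library, in CPM on axes that start at 0, with RepB-/- bars in red and WT bars in blue. RepB-/- replicate 1 is the highest library in all 4 panels, with 685 CPM of markers and 17.4 CPM of *Mmp9*.

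Per kilobase, the 7 MMPs gave 2.41, 1.15 and 1.11 times the summed TIMP level in RepB-/- livers and 2.21, 1.49 and 1.24 times in WT livers, so that replicate 1 was highest in both genotypes and the genotypes overlapped. The ratio was above 1 in every liver library and below 1 in every MEF library; levels of the 2 tissues come from separate tables and annotations and were not tested against each other. *Timp1*, the leading TIMP of MEFs, is not among the 3 summed and had at most 50 counts in any liver library. None of the genes in the 4 lists of partners, related proteases, regulators and substrates was called in liver.

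The genotype effects of MEFs and liver were compared by the interaction term over all 12 libraries. Of 14664 genes, 54 were called (0.368%), none of them one of the 10, and with a replicate block 1.28% were called, again without a member. *Timp3* came nearest, with a difference of -0.70 ± 0.31 (MEF minus liver, unadjusted p = 0.0447, edgeR adjusted p = 0.335), and *Mmp14* had 0.68 ± 0.51 (adjusted p = 0.603), which became 1.35 without liver RepB-/- replicate 1 (adjusted p = 0.0946) and 0.38 without liver WT replicate 1. *Mmp10*, at 0 counts in liver, gave no usable estimate.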

How the data were processed

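For primary MEFs and for liver, gene counts from 3 RepB-/- and 3 WT libraries entered the analysis, 12 libraries in all, grouped by the letter and number in their labels. The 6 brain libraries of the series were not analysed here. The authors deposited raw read counts for each gene, with GRCm39 coordinates for MEFs and GRCm38 coordinates for liver. The paper's methods state stranded libraries made by Genewiz and Novogene, trimming with Cutadapt, alignment with Hisat2 and tests with DESeq2. The submitters' processing notes name Trim Galore 0.4.1, STAR 2.7.0, HTSeq 0.12.4, DESeq2 and deepTools 3.5.0, so which aligner and counter made either table, and whether counting used strand, is not settled. Even numbers made up 49.9% to 53.4% of liver counts from 1 to 20 and 42.9% to 45.7% of MEF counts, so the tables may have been counted differently. The deposited per-library columns that were not used numbered 18. For MEFs, 51 rows without a gene name stayed among the genes listed and entered the MEF fit. The comparison of tissues, joined by gene symbol, did not hold them.

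Each tissue was fitted with edgeR 4.0.16 in R 4.3.3 (TMM, filterByExpr, quasi-likelihood test on genotype), with Benjamini-Hochberg adjustment over all genes tested and a threshold of 0.05. Genotype effects of the tissues were compared by a tissue-by-genotype term fitted over the 12 libraries together. Fold changes are edgeR estimates, and errors are standard errors of the log2 fold change or SDs of CPM. The quasi-likelihood test gives no standard error. It was derived as the absolute log2 fold change divided by the square root of the F statistic. CPM per kb used the gene lengths of the MEF table in both tissues. Counts of 3 or fewer in every library were treated as the floor, which covers counting error only.

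Alternatives were DESeq2 1.42.0, its size factors in edgeR, upper quartile scaling, no filter on low counts, replicate number as a block, leaving out each library, and in liver a term for replicate 1, also without the RepB-/- library with Y-linked counts. A block over liver pairs 1 and 3 and a fit without both replicate 1 livers were chosen later, with the data in view. Libraries of the same number deviated together in liver (r = 0.710, 0.361 and 0.365, with -0.553 to 0.406 between different numbers). Every pair passed a limit of 0.1, although pairs 2 and 3 lie within the range of different numbers. Deviations were taken from means of 3 libraries, so replicate 1 standing apart in both genotypes also raises r in pairs 2 and 3. The liver fit as reported held genotype alone, and its p-values do not use the numbers as pairs. The block was run as an alternative. Alternatives meant for values other than counts did not apply.

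The members and all gene lists were chosen with earlier results of these data known. The text names all members, other family genes with at least 10 counts, and from each list the genes that moved most in either direction (up to 3 each, at least 1 CPM), or the 2 most abundant where none was called; further list genes were named for their known role after their values were seen. Genes like *Mmp10* were sought among those with at least 10 CPM, on log2 CPM with a prior count of 2. Promoter windows and motifs came from RefSeq (GRCm38.p6). Figures were made with Python 3.11.15 and matplotlib 3.10.9.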

Additional observations from a re-analysis of the deposited data

How the results depend on the processing

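In MEFs the same 6 members were called with DESeq2, with DESeq2's size factors or upper quartile scaling in edgeR, without a filter on low counts and with replicate number as a block, and the count over all genes was 5202 in the fit as reported and 5006 with the block. MEF libraries that shared a number did not deviate together (r = -0.042 to -0.0035), so the number is no pairing there. Leaving out a MEF library gave 4 to 7 called members and 3956 to 5233 called genes: *Mmp2* was lost without RepB-/- replicate 1 or 2, *Mmp9* without RepB-/- replicate 2 or WT replicate 3, *Mmp3* was gained without RepB-/- replicate 3 and *Timp4* without WT replicate 1. *Mmp10*, *Mmp11*, *Mmp13* and *Mmp14* kept their call and direction in all of these fits.

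In liver no member was called by any alternative, while the count over all genes was 6 in the fit as reported, 0 with upper quartile scaling, 0 without the filter, 80 with DESeq2, 3 with a term for replicate 1 and without RepB-/- replicate 2, and 0 to 4 when each library was left out. Of the alternatives chosen after seeing the data, the replicate block over pairs 1 and 3 called 0 genes and the fit without both replicate 1 libraries called 2. The replicate block over all liver pairs called 8 genes and changed no member's call. The interaction called 54 genes as reported, 187 with the replicate block and 1 to 412 when a library was left out, with 0 members each time. The causes of these moves were not tested. The spread between livers limits what could be detected there, and low counts limit *Mmp9* and *Timp4* in MEFs and *Mmp13* in liver.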
